A study of Sus scrofa with 6 samples.

Results

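Chromatin accessibility of crossbred pig embryos (DZ, DurocxTibetan) was set against that of purebred Tibetan embryos (ZZ) at 3 embryonic stages. The comparison used all 6 libraries of the series, 3 of each breed, and paired a DZ library with the ZZ library of the same stage: embryonic day 18 (E18), E21 and E28. Single-cell ATAC-seq was used, an assay in which Tn5 transposase cuts DNA that nucleosomes leave exposed, and cuts were counted in peaks for each cell barcode. Somites were taken at E18 and E21 and myotomes at E28, so stage and tissue changed together. Each library pooled 5 embryos of 1 sow, and the crosses shared the breed of the female parent and differed in the male parent, Duroc for DZ and Tibetan for ZZ. The labels name no treatment. There was 1 library for each stage and breed, so a p-value over stages measures the spread of the breed difference between sows and stages together, and a difference that belonged to 1 stage had no replicate check.

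Somites are blocks of paraxial mesoderm beside the neural tube. Their dermomyotome gives rise to the myotome and to the progenitors of skeletal muscle, and their sclerotome to vertebrae and ribs. Open chromatin marks promoters and enhancers, short stretches where transcription factors bind, and a cross between breeds brings together in each nucleus the regulatory sequences of both parents. Duroc is a fast-growing commercial breed and the Tibetan pig a small, slow-growing highland breed.

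The unit of measurement was the merged region: peaks of the 6 libraries that overlapped were joined, counts were summed over barcodes holding 2000 to 30000 counts, and each sum was scaled by the library total to give CPM, the count per 1e6 counts of the library. The barcodes kept numbered 58809 of 64439, and 89816504 to 133037579 counts remained in each library. Of 294825 merged regions 288168 lay on autosomes, and 76721 of these held a peak of every library. Covered length, the number of bases under a library's own peaks, ran from 102 to 191 Mb per library, and counts exist only inside those peaks. Each pair of libraries shared 113 to 157 barcodes. In sums over all cells, fewer cells of a type and less accessibility per cell cannot be told apart.

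Sequences of regions from each direction are shown first, because letter content is among the properties read below. Each line gives the middle 200 bases of a merged region, read 5′ to 3′ on the + strand of the RefSeq genome Sscrofa11.1, and capitals mark matches on either strand to any of 10 short motifs named further on. The lines near CRYBB2 and in RIN2 come first by the smallest stage difference in their direction. They are ranked among regions whose covered length in the breeds stayed within 1.5 times. The line near TMEM106A is the region with the lowest edgeR adjusted p when covered length was limited. The PDE7A and IGSF5 lines had a peak in every library of 1 breed and in none of the other. By lowest CPM they were places 2 and 4 among such regions of DZ and ZZ. The lines are examples, and their motif matches do not give the share in either direction.
Near CRYBB2, higher in DZ, chr14:43229788-43229987: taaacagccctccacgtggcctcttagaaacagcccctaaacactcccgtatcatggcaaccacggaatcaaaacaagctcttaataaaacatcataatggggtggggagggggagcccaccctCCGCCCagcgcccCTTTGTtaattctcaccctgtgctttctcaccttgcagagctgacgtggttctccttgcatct
Near TMEM106A, higher in DZ, chr12:19714060-19714259: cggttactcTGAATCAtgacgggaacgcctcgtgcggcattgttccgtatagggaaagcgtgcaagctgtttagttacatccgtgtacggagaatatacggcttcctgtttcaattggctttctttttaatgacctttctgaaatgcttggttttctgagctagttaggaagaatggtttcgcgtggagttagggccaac
PDE7A intron, peak in DZ only, chr4:68855963-68856162: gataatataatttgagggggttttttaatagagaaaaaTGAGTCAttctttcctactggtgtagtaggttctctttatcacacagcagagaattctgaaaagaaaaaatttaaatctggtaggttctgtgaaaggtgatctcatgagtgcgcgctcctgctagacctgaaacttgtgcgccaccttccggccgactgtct
RIN2 intron, lower in DZ, chr17:27968063-27968262: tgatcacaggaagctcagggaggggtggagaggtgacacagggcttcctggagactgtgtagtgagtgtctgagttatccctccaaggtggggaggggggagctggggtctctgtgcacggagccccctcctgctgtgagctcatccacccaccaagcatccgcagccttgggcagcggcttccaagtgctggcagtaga
IGSF5 intron, peak in ZZ only, chr13:203355980-203356179: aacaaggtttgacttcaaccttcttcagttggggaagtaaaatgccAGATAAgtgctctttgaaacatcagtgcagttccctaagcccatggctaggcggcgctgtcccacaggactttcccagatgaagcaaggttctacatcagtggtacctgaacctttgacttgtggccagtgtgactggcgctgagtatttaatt
The lines near TMEM106A and in PDE7A hold TGANTCA, a relaxed form of the AP-1 word. The usual site of this family of dimeric transcription factors has C or G in the middle, as in PDE7A, whereas the line near TMEM106A has A. The RIN2 line holds none of the 10 motifs. In the IGSF5 line the capitals mark AGATAA.

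IGSF5, an immunoglobulin superfamily protein of cell junctions, was the gene with the clearest difference. Its window, the gene body on chromosome 13 from 203325385 to 203372361 and the 2 kb before its start, held 26.8, 37.0 and 21.3 CPM in ZZ at E18, E21 and E28. In DZ it held 8.26, 9.92 and 7.90 CPM. The lowest ZZ library thus lay above the highest DZ library, and accessibility in ZZ was 3.22, 3.70 and 2.68 times that in DZ at the 3 stages. The edgeR quasi-likelihood test with a term for stage gave a log2 difference of DZ against ZZ of -1.65 (SE 0.146, n = 3 libraries per breed) with an adjusted p of 0.0223. It was the only gene called among 19810 windows tested, 0.00505% of them, with all 6 libraries. Without 1 library the count was 0 for either E18 library, 4 for either E21 library and 44 or 48 for the ZZ or DZ library of E28. The stage term then takes up the library left alone at its stage. The breed difference of each such fit thus rests on the pairs of the other stages only. Of these windows 1596 had an unadjusted p under 0.05, and DESeq2 called 68, IGSF5 among them with an adjusted p of 1.06e-18.

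The window joined 11 regions. The region over the first exon, chr13:203325402-203328783, held 1607, 2295 and 844 counts in ZZ and 405, 322 and 390 in DZ, which made it the largest part of the difference at each stage. An intronic region 23.2 kb from the start held 1.02, 4.39 and 2.0 CPM in ZZ and 0.0653, 1.17 and 0.806 CPM in DZ. The region whose sequence is printed above, 30.5 kb into the gene, held 164, 145 and 96 counts in ZZ and no peak in DZ. At the last region, 41.6 kb before PCP4, the breeds were closer, with 2.55, 4.12 and 2.33 CPM in ZZ and 2.14, 2.04 and 1.51 CPM in DZ. All 3 ZZ libraries had a peak in 6 of the 11 regions and all 3 DZ libraries in 3. The order was not the same everywhere, since a region 17.3 kb from the start held 203 counts in DZ and none in ZZ at E21.

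**Figure D1:**
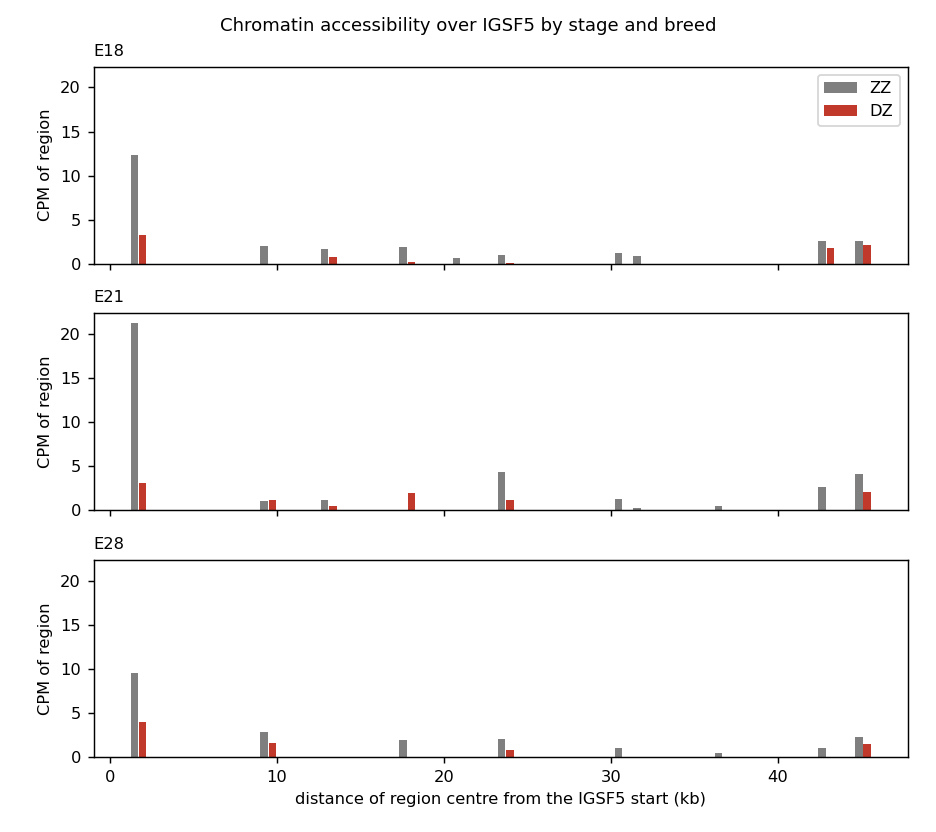
Accessibility of each merged region of the IGSF5 window in CPM (vertical axis) against the distance of its centre from the start of the gene in kb (horizontal axis), with 1 panel per stage, ZZ in grey and DZ in red. The region over the first exon stood at 12.3, 21.3 and 9.59 CPM in ZZ and 3.31, 3.08 and 4.03 CPM in DZ.

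Covered length moved with this difference. Peaks covered 7887, 7365 and 4112 bases of the window in ZZ and 2724, 3828 and 2147 in DZ. With covered length as an offset the log2 difference was -0.51 with an adjusted p of 0.619, so per covered base the call was lost. Without the E18 library of either breed the adjusted p was 0.0927 to 0.116 at a log2 difference of -1.62. It was 0.0105 or 0.00269 in edgeR at -1.53 without the ZZ or DZ library of E21, and 5.09e-07 or 4.26e-08 at -1.79 without that of E28. Each of these fits rests on the pairs of the other stages only, so the runs without the ZZ or the DZ library of a stage are not separate checks. With all deposited barcodes the edgeR adjusted p was 0.0502. Of 12 annotated neighbours within 500 kb on either side none was called by edgeR. Farther upstream, the log2 differences of BRWD1, HMGN1, WRB, LCA5L and SH3BGR lay between 0.01 and 0.13. Nearer upstream, LOC110256490 was at -0.28 (SE 0.154) and B3GALT5 at 0.39 (SE 0.293). LOC102166913, the closest upstream, was at -0.50 (SE 0.308) with stage values of -0.63, -0.15 and -0.77. PCP4, the next gene downstream, was at -0.14 (SE 0.0881) and DSCAM, a neural cell adhesion gene, at -0.07 with stage values of -0.08, -0.30 and 0.09. The largest was -1.11 (SE 0.620) at LOC110256553 and MIR9805, which share 1 region and stood at -0.35, 0.01 and -3.25 at the 3 stages.

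At the level of single regions, agreement over the 3 stages at 1.5-fold was rare. A region counted as called when DZ was at least 1.5-fold above or below ZZ at each stage in the same direction, with 0.1 CPM added to each value, and reached 1 CPM in all 3 libraries of a breed. Of 69141 regions that reached that level 270 were higher in DZ (0.391%) and 205 were lower (0.296%). With a minimum of 5 CPM the balance turned, to 24 higher and 32 lower, and with scaling by edgeR's trimmed mean of M-values (TMM), which centres the bulk of regions, 309 were higher (0.446%) and 0.241% lower. With no minimum fold, 7666 were higher at all stages (11.1%) and 12662 lower (18.3%). After TMM scaling these became 9788 (14.1%) and 10442 (15.1%), so the higher share of the calls went from 37.7% to 48.4%. No region passed the edgeR test, 0% of 76721. At an unadjusted p under 0.05 it gave 3792 of the 76721, no larger a share than that threshold would give with no difference. Of the 3792, 2360 were higher and 1432 lower. DESeq2 called 155 of the 76721, of which 126 were higher.

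Because a library with wider peaks gathers more counts, the regions described first are those whose covered length in the breeds stayed within 1.5 times at each stage. Among 50741 such regions 56 were higher in DZ (0.11%) and 35 lower (0.069%). With TMM scaling they were 73 and 28. They were ordered by the smallest of the 3 stage differences, and the first 10 of each direction are given below. The adjusted p of edgeR was 0.847 for each of them.

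The first of the regions higher in DZ lay between genes, chr14:43229533-43230242, 23.4 kb from CRYBB2, which codes for a lens crystallin. It held 1.82, 1.89 and 2.72 CPM in ZZ and 3.71, 3.87 and 5.79 in DZ, log2 differences of 0.99, 1.0 and 1.06. The breeds did not overlap there. An intron of BABAM2, which codes for a subunit of a BRCA1-containing DNA repair complex, held 2.06, 2.46 and 2.28 CPM in ZZ and 3.77, 4.44 and 5.86 in DZ, so every DZ library again exceeded every ZZ library.

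PRKG1, the cGMP-dependent protein kinase of smooth muscle, had an intronic region at 1.53, 3.74 and 6.61 CPM in ZZ and 2.94, 8.32 and 11.7 in DZ. Here the levels climbed from E18 to E28 in both breeds, so the groups overlapped although DZ was higher at each stage. A region 6.90 kb from CDO1, the cysteine dioxygenase, stood at 0.651, 1.26 and 1.24 CPM in ZZ and 1.52, 2.29 and 2.63 in DZ. A region 117 kb from TSHZ3, a zinc finger transcription factor, held 0.559, 4.20 and 4.89 CPM in ZZ and 1.05, 7.57 and 9.19 in DZ. It was scarcely open at E18 in either breed and was higher in DZ by 0.81, 0.84 and 0.90 on the log2 scale. An intron of the kinase gene STK35 reached the highest level of the 10, 17.2 CPM in DZ at E28 against 6.58 in ZZ. The other 4 higher regions lay in introns of RASSF8 and LOC110259527 and between genes near KIF21A and LOC110256444, with log2 differences from 0.76 to 1.46. Places 11 and 12, just outside, were a region far from LRRC4C and an intron of BMPER, with smallest differences of 0.74 and 0.73.

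Among regions lower in DZ the first was the RIN2 intron, chr17:27967805-27968521. RIN2 codes for an exchange factor of the endocytic GTPase Rab5. It held 4.48, 3.07 and 4.57 CPM in ZZ and 1.90, 1.18 and 2.04 in DZ, log2 differences of -1.19, -1.31 and -1.13, with no overlap between the breeds. A region 20.7 kb from BHLHE23, which codes for a helix-loop-helix factor, held 5.11, 3.70 and 1.94 CPM in ZZ and 2.25, 1.48 and 0.972 in DZ. Both breeds declined with stage there, and DZ stayed below.

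TJP1, which codes for the tight junction protein ZO-1, had an intronic region at 4.03, 3.64 and 2.42 CPM in ZZ and 1.42, 1.91 and 1.10 in DZ. A region shared by SLC2A4, the insulin-responsive glucose transporter of muscle and fat, and its neighbour YBX2 held 4.51, 7.05 and 16.2 CPM in ZZ and 2.47, 3.47 and 7.56 in DZ. It opened with stage in both breeds, with log2 differences of -0.84, -1.0 and -1.09. An intron of the forkhead gene FOXN3 held 8.96, 10.3 and 7.85 CPM in ZZ and 4.46, 3.49 and 4.39 in DZ. The highest level of the 10 was at CROCC, which codes for a ciliary rootlet protein, with 16.8, 13.3 and 15.3 CPM in ZZ and 9.74, 7.69 and 8.56 in DZ. The breeds were separate at FOXN3 and CROCC. Introns of SYT7 and SCARA5, an exonic region of ANKRD54 and a region near LOC100513894 made up the rest, with log2 differences from -1.46 to -0.75. Places 11 and 12 lay near ENTPD4 and in DSCAML1, each with a smallest difference of -0.75. With covered length as an offset in edgeR, the log2 differences were 0.50 to 0.91 for the 10 higher regions and -0.85 to -0.54 for the 10 lower ones.

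**Figure D2:**
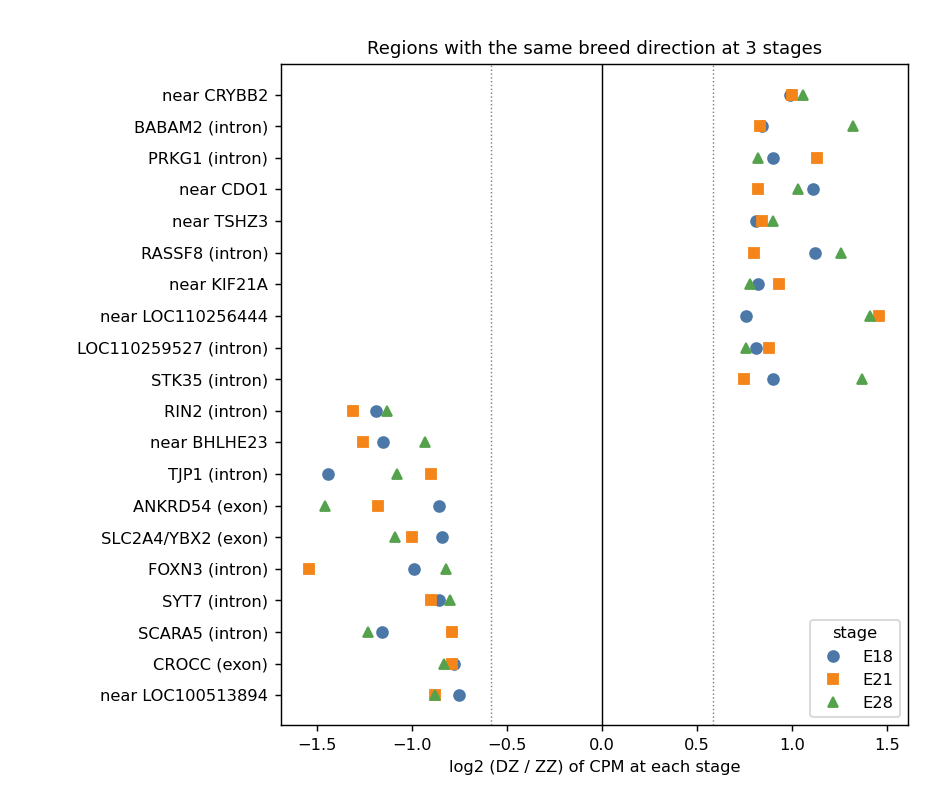
Log2 ratio of DZ to ZZ accessibility (horizontal axis) in the 10 higher and 10 lower merged regions with the largest smallest difference among those with covered lengths within 1.5 times, with 1 marker per stage and dotted lines at 1.5-fold. The stages of the RIN2 intron lay between -1.31 and -1.13, and those near CRYBB2 between 0.99 and 1.06.

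Without the limit on covered length the differences were larger. An intron of CUX2, a homeobox gene, held 1.92, 2.21 and 1.43 CPM in ZZ and 0.433, 0.516 and 0.238 in DZ, but its peaks covered 1444, 972 and 389 bases in ZZ and 225, 347 and 45 in DZ. With covered length as an offset its direction turned, to 0.14. An intron of SMYD4 held 6.61, 6.08 and 3.41 CPM in ZZ and 2.30, 2.07 and 1.23 in DZ. An exonic region of DRC7, which codes for a subunit of the dynein regulatory complex of cilia, and the pair of IGSF5 regions completed the first 5 lower places. On the higher side the first 5 were a region near LOC100526209, which turned to -0.09 with the offset, introns of TGFBR3 and ANTXR1, and regions near FBXL7 and SMKR1. TGFBR3 codes for betaglycan, a co-receptor for TGF-beta, and its intron held 0.459, 0.936 and 1.57 CPM in ZZ and 1.41, 2.92 and 4.46 in DZ. ANTXR1 codes for a collagen-binding receptor, and its intron held 0.926, 0.408 and 0.352 CPM in ZZ and 2.60, 2.40 and 15.3 in DZ. At E28 its peaks covered 1232 bases in DZ and fewer in ZZ. With the offset the TGFBR3 intron went from 1.63 to 0.63, the ANTXR1 intron from 3.10 to 1.31 and the SMYD4 intron from -1.47 to -0.75 in edgeR.

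When edgeR was run over only the regions with covered lengths within 1.5 times, 4 of 53155 passed, all higher in DZ. This limit is not independent of the outcome, since the breed difference moved with the ratio of covered lengths, and over all 76721 regions each of the 4 had an adjusted p of 0.847. The region 40.6 kb from TMEM106A, chr12:19713285-19715035, held 8.75, 15.6 and 15.1 CPM in ZZ and 13.3, 38.9 and 46.8 in DZ, a log2 difference of 1.24 with an edgeR adjusted p of 0.0359. The others, at 0.67 to 0.85, each had an edgeR adjusted p of 0.0442. An intron of TRAK1, which codes for an adaptor of mitochondrial transport, held 13.1, 15.5 and 22.5 CPM in ZZ and 22.0, 23.0 and 47.0 in DZ. An intron of RFX2, a transcription factor of ciliated cells, held 20.5, 25.6 and 32.0 CPM in ZZ and 31.5, 36.4 and 52.7 in DZ. An intron of WLS, which codes for the carrier that brings Wnt proteins to the cell surface, held 10.4, 26.9 and 33.0 CPM in ZZ and 17.4, 36.1 and 62.1 in DZ. At each of the 4 the DZ library was higher at every stage, by 0.43 to 1.63 on the log2 scale, while the ranges of the breeds overlapped when stages were put together.

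Some regions had a peak in every library of 1 breed and in none of the other. There were 191 with peaks in DZ alone (0.0663% of merged autosomal regions) and 82 with peaks in ZZ alone (0.0285%). Most were faint, with a median of the lowest CPM of 0.306 in DZ and 0.25 in ZZ, and only 9 and 4 reached 1 CPM in all 3 libraries. A region 360 kb from CDH12 held 247, 311 and 213 counts in DZ. The printed PDE7A intron, in a gene for a cAMP phosphodiesterase, held 313, 158 and 204 counts in DZ. Regions in LOC102168194 and near SYK, a tyrosine kinase gene of blood cells, were also among the first 5 of DZ, each with at least 1.23 CPM. On the ZZ side introns of LOC110257458 and MAN1C1, a mannosidase gene, held 237, 228 and 184 and 166, 148 and 131 counts. Regions near EIPR1 and CMPK2 and the IGSF5 intron printed above completed the first 5 of ZZ, at 0.977 to 2.23 CPM. A value of 0 in these regions means that no peak was called there, since cuts outside a library's peaks were not counted. Reads of both breeds were aligned to the same reference genome. The part of mapping in the 191 and 82 regions, and in the breed differences above, was not tested.

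Position and letter content were then read for each direction. Of the regions considered 33.7% touched an exon, 34.4% lay in introns and 30.7% between genes. Among regions higher in DZ exons made up 13.7% and introns 53.7%, and among lower regions 24.4% and 43.4%. In the middle 200 bases the median GC content was 52.5% over the regions considered, 45% in the higher and 55% in the lower ones. The called regions were also fainter and narrower, with a median of 2.58 CPM and 1110 bases for higher and 2.48 CPM and 1256 bases for lower ones, against 5.4 CPM and 1474 bases. With covered length within 1.5 times the medians were 4.5 and 4.93 CPM against 6.81, and exons made up 7.14% of higher and 17.1% of lower regions against 38.3%. These shares describe the called regions and were not tested, nor was the part of level and width in them.

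The letters TGANTCA, which read the same on both strands, were more frequent among regions higher in DZ. They occurred in the middle 200 bases of 4278 of the regions considered (6.19%), in 62 of the 270 higher ones (23%) and in 7 of the 205 lower ones (3.41%). With covered length within 1.5 times, 15 of 56 higher regions held them (26.8%) and 1 of 35 lower ones (2.86%). Among regions with peaks in DZ alone it was 57 of 191 (29.8%), and among those with peaks in ZZ alone 1 of 82 (1.22%). The contrast also held in introns and between genes, where 7.49% of regions considered, 25.5% of higher and 3.9% of lower ones had a match. AP-1 dimers of Fos, Jun and related proteins bind the word with C or G in the middle. That form was in 3.8% of the regions considered, 17.4% of higher and 1.95% of lower ones, and in 24.1% of regions with peaks in DZ alone. With A or T in the middle the shares were 2.52, 7.78, 1.46 and 6.28%, and some regions held both forms. The motif, its split by the middle letter and the lists of AP-1 genes below were chosen after the values of these regions had been seen, so the shares are descriptions. All letters came from the reference genome and not from the embryos. Differences of the breeds in the sequence itself were therefore not seen, and their part in these shares was not tested.

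The breed difference was also read over all regions with and without the word. Of the regions considered, those with TGANTCA had median log2 differences of 0.04, 0.13 and 0.02 at E18, E21 and E28, and those without it 0.00, -0.10 and -0.07. After TMM scaling the medians with the word were 0.04, 0.20 and 0.09. With C or G in the middle they were 0.04, 0.21 and 0.05 without that scaling, and with A or T 0.05, 0.04 and -0.02. At E21 60.9% of regions with the word were higher in DZ, against 38.6% of those without. The GC box, GGGCGG, went the other way at E28, where 36% of regions with it were higher in DZ against 46.1% of those without. Of the other motifs searched, the E-box CAGCTG, bound by MYOD and its relatives, stood in 16.6% of the regions considered. The GC box was in 19.1% of them, in 6.3% of higher and 22% of lower regions, and with the covered length limit in 5.36 and 34.3%. GGAATG, bound by TEAD factors, was in 12.4%, in 18.5% of higher and 13.2% of lower regions, and with the limit in 25 and 17.1%. ACAAAG, bound by SOX factors, was in 14%, against 19.3% of higher and 14.1% of lower ones, and the GATA word AGATAA in 7.5%, against 10.4 and 9.76%. The E-box CACCTG of E2A type was in 16.5%, against 13 and 16.6%. The homeobox word TAATTA was in 3.51%, against 2.59 and 2.93%, the forkhead word GTAAACA in 2.35%, against 3.33 and 0.488%, and the MEF2 site in 1.89%, against 2.22 and 1.46%. Both strands were searched for each. For CAGCTG, the word of the myogenic factors, the median with and without differed by no more than 0.01 at each stage, and 14.8% of higher and 19.5% of lower regions held it.

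**Figure D3:**
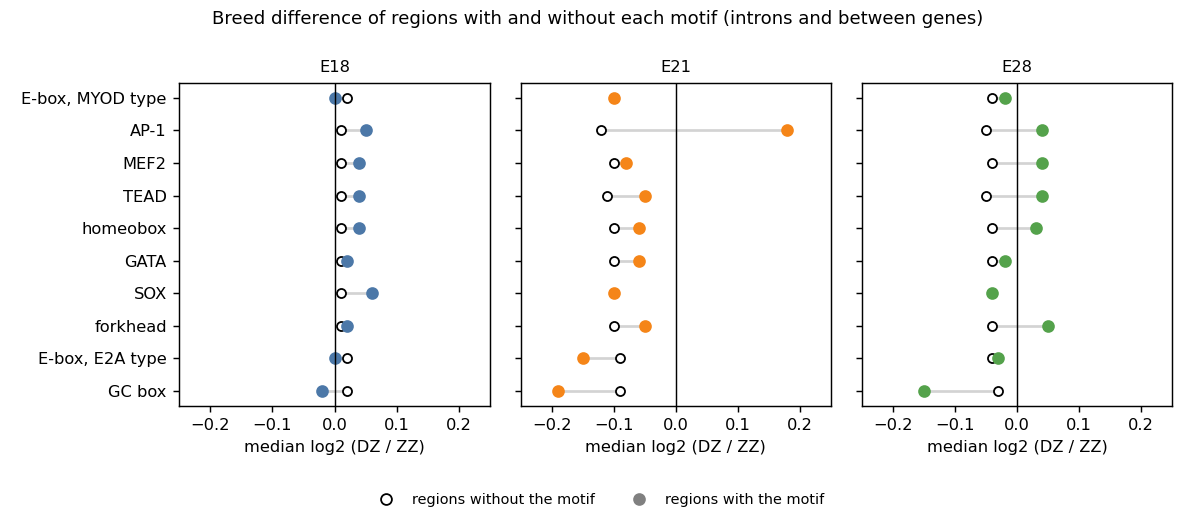
Median log2 ratio of DZ to ZZ in merged regions of introns and between genes with a match to each of 10 motifs (filled markers) and without it (open markers), for each stage. Regions with TGANTCA stood at 0.05, 0.18 and 0.04 at E18, E21 and E28 and those without at 0.01, -0.12 and -0.05.

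Genes of AP-1 proteins and of other immediate early factors were read next to this. Of 12 AP-1 family genes, all with a window, 4 were higher in DZ at all stages and 2 lower, and 3 had an unadjusted edgeR p under 0.05, each higher. These were 50% and 25% of the list, where all windows gave 31.6% with 1 direction and 8.06% under that p. The median edgeR log2 difference was 0.12, against 0.00 over all windows. Summed CPM over the list was 1.03, 1.02 and 1.23 times that of ZZ. MAFK, a small Maf partner, held 80.6, 73.4 and 68.4 CPM in ZZ and 92.0, 96.6 and 91.4 in DZ, with no overlap between breeds. Its log2 difference was 0.36 (SE 0.0818), which DESeq2 called with an adjusted p of 0.0368 and edgeR did not. FOS, the founding member, held 78.4, 95.3 and 138 CPM in ZZ and 81.5, 92.0 and 229 in DZ, so DZ was slightly higher at E18, lower at E21 and higher at E28. FOSL2, ATF3 and MAFF were higher at all 3 stages, and BATF and BATF3 lower. Among 16 immediate early genes, 14 with a window, 4 were higher at all stages (EGR2, KLF2, KLF4 and KLF6) and none lower, with a median of 0.10. That was 28.6% of the list, below the 31.6% of all windows with 1 direction. Of all 19810 windows, counted with no minimum level, 2379 were higher at all stages. An unadjusted edgeR p under 0.05 was found for 3 of the 14, each higher, 21.4% against 8.06% of all windows. KLF2 was at 0.46 with a DESeq2 adjusted p of 0.0339, but its covered length was 3683 bases in ZZ and 8697 in DZ at E28. The list overlaps the myogenic regulators below in KLF2 and EGR1.

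Gene windows were counted in the same way. At least 1.5-fold, 16 of 19615 windows were higher (0.0816%) and 13 lower (0.0663%). With a minimum of 5 CPM the balance turned, to 1 higher and 11 lower. With no minimum fold 2347 were higher (12%) and 3857 lower (19.7%), and TMM scaling turned these into 3147 and 3135, so the higher share of calls went from 37.8% to 50.1%. With covered length within 1.5 times, 1 of 17047 windows was higher (0.00587%), LOC110255439, and 2 were lower (0.0117%), LOC100515441 and LOC110257023. With TMM scaling there was 1 of each. At least 2-fold at each stage, the windows were GSTA1 and IGSF5, lower, and GIMAP1, higher. With covered length as an offset in edgeR, GSTA1 went from -2.39 to -0.41 and GIMAP1 from 1.97 to 0.38. GSTA1 belongs to a family of near-identical copies, so its counts are uncertain. SENP3, a SUMO protease gene that earlier results of these data had called, held 99.1 to 148 CPM in ZZ and 96.3 to 162 in DZ, a log2 difference of 0.10 (SE 0.0769) with an edgeR adjusted p of 0.723. Summed over each library's own peaks instead of merged regions, it was at 1.79 with an adjusted p of 0.00647.

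Ordered by the smallest stage difference among windows with at least 5 CPM in all libraries of a breed and covered length within 1.5 times, IPCEF1 led the higher side. It held 11.7, 17.6 and 46.5 CPM in ZZ and 18.4, 31.3 and 66.1 in DZ. The log2 difference was 0.69 (SE 0.0960), with an adjusted p of 0.459 in edgeR and 2.48e-04 in DESeq2. ANXA2, a calcium-dependent membrane-binding annexin, held 56.1, 73.1 and 125 CPM in ZZ and 73.7, 112 and 163 in DZ. It was higher at each stage by 0.39, 0.62 and 0.38, with an adjusted p of 0.582 in edgeR and 1.39e-04 in DESeq2. TFPI, the inhibitor of tissue factor, and PDE1A, a calmodulin-dependent phosphodiesterase, were also in the first 10, at 0.67 (SE 0.252) and 0.51 (SE 0.141). CYP7A1, which codes for the rate-limiting enzyme of bile acid synthesis and belongs to liver, held 10.0, 12 and 19.5 CPM in ZZ and 13.9, 18.6 and 25.1 in DZ. LRRC2, C3H16orf92 and 3 genes known only by a locus number, LOC102159151, LOC106507401 and LOC110255482, made up the rest, between 0.41 and 0.79.

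On the lower side LOC100515441 came first, with 5.21, 15.7 and 49.8 CPM in ZZ and 3.23, 9.85 and 22.4 in DZ. Its log2 difference was -0.81 (SE 0.148), with an adjusted p of 0.582 in edgeR and 0.00334 in DESeq2. ISLR, a gene of mesenchymal cells, held 13.8, 12.8 and 21.7 CPM in ZZ and 8.97, 9.51 and 13.8 in DZ. PI16, a peptidase inhibitor gene of fibroblasts, held 12.5, 10.6 and 10.7 CPM in ZZ and 8.58, 8.34 and 4.56 in DZ, without overlap. SSTR3, a somatostatin receptor gene, was at -0.53 (SE 0.205) and BHLHE23 at -0.43 (SE 0.180). NRIP2, ZNF683, LOC110257023, LOC102162217 and LOC110259216 completed the 10. None of these 20 windows passed edgeR, with adjusted p from 0.459 to 0.644. With covered length as an offset the differences shrank, to between 0.10 and 0.44 for the 10 higher windows and between -0.41 and 0.00 for the 10 lower ones. IPCEF1 was then at 0.30, ANXA2 at 0.26, TFPI at 0.41, and PDE1A and LOC110255482 at 0.10.

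Lists of genes that fit the tissue and the breeds were then counted. Over all windows 31.6% had 1 direction at all stages and 8.06% an unadjusted edgeR p under 0.05, with a median log2 difference of 0.00. Counted with no minimum level, 2379 of the 19810 windows were higher at all stages and 3872 lower. Values of list members below are edgeR log2 differences of DZ against ZZ. Of 27 myogenic regulators, the transcription factors that set up and run the muscle program, 6 were higher at all stages and none lower, 22.2% with 1 direction. Among them were SOX6, MEF2C, TCF12, KLF2 and MEF2A, and the ends of the list were MEF2A at 0.65 and TEAD4 at -0.12. An unadjusted edgeR p under 0.05 was found for 3 of the 27 (11.1%), each higher, and DESeq2 called 1. MEF2A is a MADS-box factor of muscle genes, and at E28 its covered length was 523 bases in ZZ and 1678 in DZ. Of 16 sarcomere and fusion genes with a window 4 were higher and 3 lower. ACTC1, the cardiac actin gene that embryonic skeletal muscle also uses, was at 0.42 and TNNT3, fast troponin T, at -0.16.

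Of 22 growth and meat yield genes 4 were higher (GHR, PLAG1, HMGA2 and RYR1) and 2 lower (ACVR2B and STC2). GHR is the growth hormone receptor gene, and HMGA2 and PLAG1 are known stature genes. The ends of the list were PRKAG3, a regulatory subunit gene of the energy sensor AMPK in muscle, at 0.46 and MC4R, a receptor gene of appetite control, at -0.30. Imprinted genes, which are read from the chromosome of 1 parent, had 21 windows, of which 3 were higher and 5 lower. The ends of that list were MKRN3 at 1.18 and DIRAS3 at -0.32, and the covered length of MKRN3 at E28 was 352 bases in ZZ and 1310 in DZ. Of 21 altitude and hypoxia genes 3 were higher (VHL, ANGPT1 and PPARA) and 4 lower (CA9, EPOR, EPO and NOS2), with PPARA at 0.41 and CA9 at -0.23. Coat colour genes had 2 higher, KIT and MC1R, and 1 lower, PMEL, of 11, and ran from SOX10 at -0.17 to MC1R at 0.49. Of 14 immune and MHC genes none was higher and 4 were lower, TAP1, TAP2, PSMB8 and PSMB9, genes of peptide transport and of the immunoproteasome. That was 28.6% with 1 direction against 31.6% of all windows, of which 3872 of 19810, counted with no minimum level, were lower at all stages. A merged region counts in every window it overlaps, so the windows of adjacent genes are not independent members of a list. The ends of the list were SLA-DQA1 at 0.55 and SLA-3 at -0.51, genes of a family in which reads can be split between copies. No member of any list passed edgeR over all windows. The shares with 1 direction were 43.8% for sarcomere and fusion, 27.3% for growth and meat yield, 38.1% for imprinted, 33.3% for altitude and hypoxia and 27.3% for coat colour genes. The list medians were 0.07 for myogenic regulators, 0.11 for sarcomere and fusion, 0.01 for growth and meat yield, 0.07 for imprinted, 0.05 for altitude and hypoxia, -0.01 for coat colour and -0.06 for immune genes.

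Marker genes of the cells that such tissue can hold were summed to see whether the breeds differed in makeup. For 11 myogenic markers summed CPM in DZ was 0.997, 0.864 and 1.2 times that in ZZ at E18, E21 and E28. These markers were open in every library, with summed levels of 464 to 557 CPM, and the list ran from MYMK at -0.13 to CHRNA1 at 0.46 on the log2 scale. For the fibroblast and mesenchyme list the ratios were 0.941, 1.11 and 0.908, and for sclerotome and cartilage 1.04, 0.97 and 0.924. Endothelial markers gave 1.06, 1.03 and 0.956 and blood markers 0.917, 1.03 and 0.946. Neural progenitor markers stood at 1.1, 0.895 and 1.09, neuron markers at 1.06, 0.875 and 0.945, and epithelial markers at 0.981, 0.893 and 0.923. Neural crest markers gave 0.987, 0.899 and 1.0, and cardiac markers 0.979, 0.811 and 1.29. Myogenic and cardiac lists were the lowest of the 10 at E21 and the highest at E28. Whether makeup had a part in the region differences was not tested.

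The size of the breed difference was not the same at the stages. The SD of the log2 difference over regions was 0.402 at E18, 0.489 at E21 and 0.773 at E28, and 9.78, 17.2 and 30.2% of regions were at least 1.5-fold apart. With covered length within 1.5 times these shares were 4.59, 11.7 and 18.5%, in the same order. For gene windows they were 1.91, 5.14 and 10.7%. The difference tracked the ratio of covered lengths at each stage, with correlations over regions of 0.812, 0.757 and 0.874. Kept counts were lowest at E28, 89816504 in ZZ and 98654857 in DZ, and the part of depth in this order was not tested.

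Correlations of the breed difference between stages were low. Over 69141 regions the Pearson correlation of the log2 differences was 0.0394 between E18 and E21, 0.178 between E18 and E28 and 0.107 between E21 and E28. The points share their libraries' depth and peak calls. The sign was the same in 49.7, 55.2 and 53.9% of regions. Regions at least 2-fold higher in DZ at 1 stage were higher at both others more often than regions at large. For the 594 chosen at E18 the share was 48% against 19% of all, for the 1853 chosen at E21 41.3% against 25.3%, and for the 3489 chosen at E28 37.2% against 20.5%. Regions at least 2-fold lower at E18 were lower at both others in 29.6% of cases against 34.9% of all, and those chosen at E21 and E28 in 41.4% against 29.9% and 37.1% against 29.2%. To be counted, a region had to reach 1 CPM in all 3 libraries of a breed. A region far apart at 1 stage tends to pass through the higher breed, which favours agreement at the other stages. These shares were not tested and are no independent check of recurrence.

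**Figure D4:**
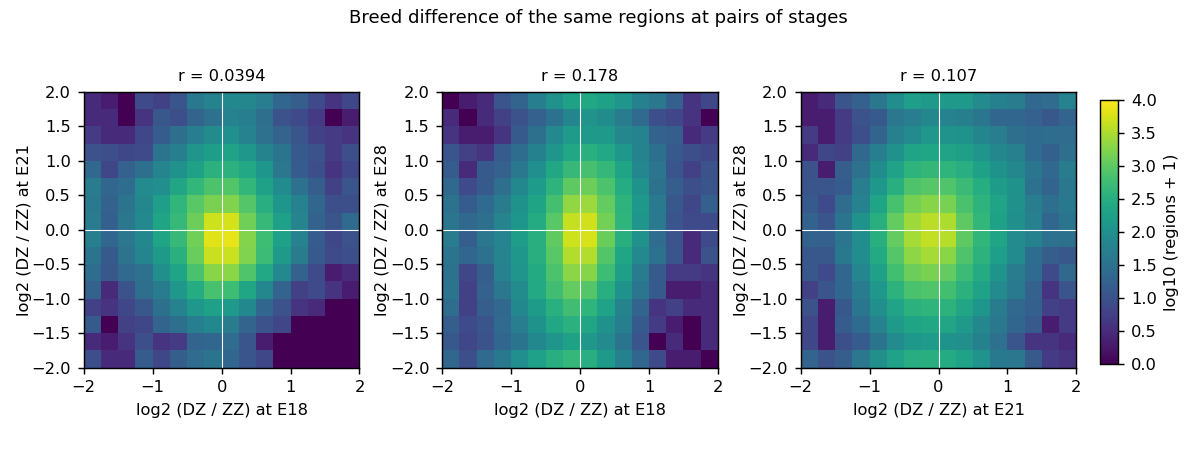
Heat maps of the log2 ratio of DZ to ZZ at 1 stage against that at another for each pair of stages, with colour giving log10 of the number of merged regions plus 1 and values beyond 2 drawn in the edge bins. The clouds were centred near 0 with Pearson correlations of 0.0394, 0.178 and 0.107.

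At E21 the breed difference followed developmental change. Its correlation with the log2 change from E18 to E28, averaged over both breeds and using no E21 library, was 0.293 over regions and 0.393 over gene windows. Regions that opened at least 2-fold from E18 to E28, 9761 of them, had a median of 0.206 at E21, and the 11851 that closed had -0.271, against -0.0898 for all. With covered lengths within 1.5 times, which here left 37777 regions, fewer than under the limit used above, the correlation was 0.326. The medians were then 0.143 over 5692 opening and -0.286 over only 612 closing regions. At E21 the DZ library was thus on the E28 side of the ZZ library along this axis. The marker sums were read beside it, first by their change in ZZ. From E18 to E28 in ZZ they went from 469 to 658 CPM for fibroblast and mesenchyme, 368 to 216 for neuron and 381 to 181 for cardiac genes, and the E21 ratios of DZ to ZZ were 1.11, 0.875 and 0.811. The other 7 lists, epithelial markers at 0.893 among them, also had their E21 ratio on the side of their change in ZZ. This did not hold for every list by the change in DZ. There myogenic markers went from 526 to 557 CPM and endothelial markers from 399 to 365, against E21 ratios of 0.864 and 1.03. The part of cell makeup in this shift was not tested. The difference at E18 had a correlation of -0.0229 over regions with the change from E21 to E28. That at E28 was at -0.0301 over regions with the change from E18 to E21, and 0.0719 over gene windows, or 0.19 with covered lengths within 1.5 times. With 1 library per breed at E21, breed and the exact age or dissection of the pooled embryos cannot be told apart.

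**Figure D5:**
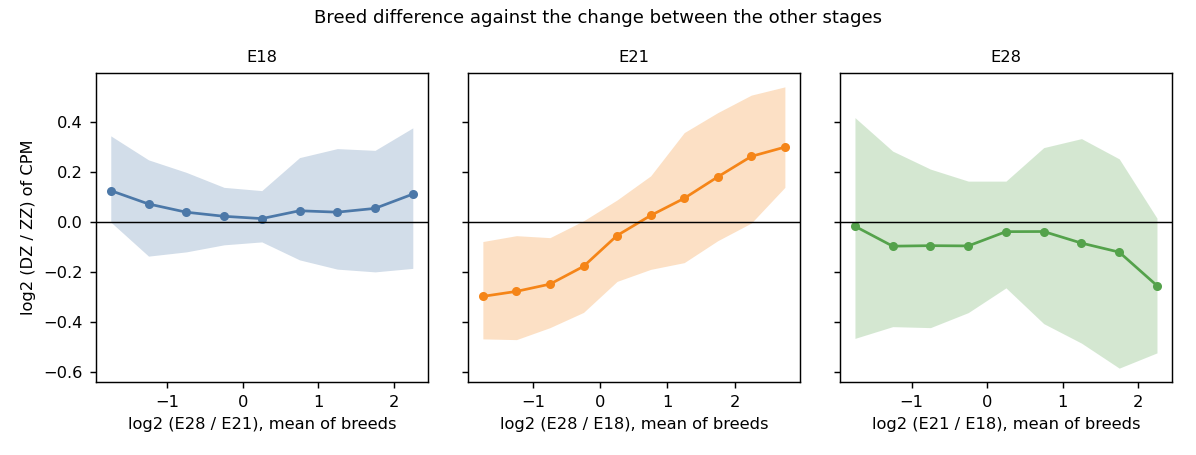
Median log2 ratio of DZ to ZZ at each stage (line, with the band between quartiles) in bins of 0.5 of the log2 change between the other stages, for merged regions with covered lengths within 1.5 times and bins of at least 20 regions. At E21 the line rose with the change from E18 to E28, from a median of -0.298 in the lowest bin to 0.299 in the highest.

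Called regions were spread over the genome. Between 0.521% and 1.2% of regions were called on each of the 18 autosomes, with the highest share on chromosome 10. Of 475 called regions 22 (4.63%) had another of the same direction within 100 kb, in 10 groups. The same share was not measured for regions at large, so whether it is low or high is not known. The largest held 4 lower regions over JAKMIP3, LRRC27 and STK32C, chr14:140450028-140622379. Other groups lay at IGSF5, at SYT7 and near KLF6, where the regions were higher.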

How the data were processed

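The 6 deposited matrices held raw counts of Tn5 cut sites per peak and barcode, with no normalization. Per the file headers they came from Cell Ranger ATAC 1.2.0, with peaks and cells called by the authors in each library separately on the pig reference Sscrofa11. The submitters' processing notes also name Signac 0.2.2 and Seurat 3.1.1. Between 90.1% and 92.4% of the counts were even numbers, since both ends of a fragment are often counted, so counts are not independent molecules. Doublets were not removed, and no cell types were called, because only sums over barcodes were used.

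Barcodes with 2000 to 30000 counts were kept, 9286 to 11243 per library. Peaks from any library sharing 1 bp or more were joined, and counts were summed per merged region and per gene window (gene body and 2 kb before its start, RefSeq annotation, autosomes). The log2 ratio of DZ to ZZ was taken on CPM plus a pseudocount of 0.1 CPM. It understates the differences of low regions. Regions and windows with a peak of every library were tested in R 4.3.3 with edgeR 4.0.16 (quasi-likelihood, TMM, stage and breed as terms, 2 residual degrees of freedom, Benjamini-Hochberg adjustment, threshold 0.05). DESeq2 1.42.0 was an alternative. An interaction of stage and breed cannot be tested with 1 library per cell of the design.

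On counts simulated from these libraries edgeR recovered 12%, 32%, 60% and 94% of regions changed 1.5-, 2-, 3- and 4-fold, among 76721 regions, with 5 false calls. For 19810 gene windows it recovered 84%, 98%, 100% and 98%, with 17 false calls. The simulation gave features of like level the same spread and the same breed effect at every stage. It changed only features above a floor of counts. Its rates therefore do not give the power in the real libraries, and an absent call is not an absent difference.

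Named regions and windows were the first places by the smallest of the 3 stage differences (10 of each direction with covered length within 1.5 times, 5 without for regions, 5 of each breed by peak presence), any that passed edgeR, SENP3, and the ends of each gene list. The genes of the windows at least 2-fold apart, the regions called under the covered length limit, the members of short counts and the AP-1 motif and lists were named after their values were seen. The comparison, the members and the gene lists were chosen with earlier results of these data known. A few named members are not reported here, and 5 of the region sequences read are printed.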

Additional observations from a re-analysis of the deposited data

Results flagged for a closer look

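Counts on the Y chromosome, which no comparison above used, made up 0.034% of the E28 DZ library and 0.00535% of the E28 ZZ library, 6.35 times as much. The ratio of DZ to ZZ was 0.818 at E18 and 1.25 at E21. Over the 3 libraries of each breed the share was 0.0251% ± 0.00776 (SD) in DZ and 0.0156% ± 0.00956 (SD) in ZZ, with p = 0.4 in a two-sided exact permutation test whose smallest possible p is 0.1. The share on the X chromosome was 1.88% ± 0.0493 (SD) in DZ and 1.89% ± 0.115 (SD) in ZZ, with p = 1 in the same exact test. The sex of the pooled embryos was not given in the sources used here, and its part in the E28 autosomal differences was not tested.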

How the results depend on the processing

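The count of regions with 1 direction and at least 1.5-fold at each stage was 475. It was 154 with a pseudocount of 1 CPM, 56 with a minimum of 5 CPM, 45 at 2-fold, 91 with covered length within 1.5 times and 20328 with no minimum fold. Leaving out a stage gave 1148 to 3220, since fewer stages had to agree. The 29 gene windows became 11, 12, 3, 3 and 6204 under the same alternatives, and 78 to 275 without a stage. Alternatives chosen after seeing the data combined TMM with no minimum fold (20230 regions, 6282 windows) or with the covered length limit (101 regions, 2 windows). For regions, edgeR called 0. DESeq2 called 155, covered length as an offset 9, all higher in DZ, and the covered length limit 4.

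For gene windows edgeR called 1, IGSF5. DESeq2 called 68, the offset 5 (DCAF15, PPP2R1A, LOC102162044 and LOC110255727 among them), and all deposited barcodes, the covered length limit, the fit with no stage term and promoters alone each called 0. IGSF5 lay outside the covered length limit, so the run with that limit did not test it. Summing each library's own peaks also gave 1, but this was SENP3. Leaving out 1 library gave 0 to 48 calls, with 0 without either E18 library, 4 without either E21 library and 44 or 48 without the ZZ or DZ library of E28. With the stage term, each of these fits rests on the pairs of the other stages only. With covered length as an offset the CUX2 intron turned to 0.14, the region near LOC100526209 to -0.09 and the LOC110259216 window to 0.00. For the 31 regions and 22 windows so recomputed (the first 10 or 5 places of each order, the IGSF5 regions, IGSF5 and SENP3), 408 of 424 alternatives for regions and 326 of 344 for windows kept direction and side of the threshold, and no other direction turned among them. Breed-only regions, the 4 regions called under the covered length limit and list members were not in that count. Nearly all features counted were chosen for 1 direction at all stages, and all but IGSF5 were uncalled in the main fit. Keeping direction and side was thus largely set by the choice and is no measure of robustness. The causes were not tested. The fit with stage as a term pairs the libraries of a stage, and in the unpaired fit with no stage term IGSF5 was at -1.68 with an adjusted p of 1 in edgeR.

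Precision was limited by 1 library per stage and breed, with 2 residual degrees of freedom. The simulated recovery of 1.5-fold regions was 12%, a rate that does not give the power in the real libraries. An absent call is therefore not an absent difference. Counts outside a library's peaks are lacking, so a missing peak gives no level.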
